A study of Homo sapiens with 18 samples.

Results

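The 37 HOX genes described here lie in the HOXA (10 genes), HOXB (9), HOXC (9) and HOXD (9) clusters, out of 19671 protein-coding genes examined, and were chosen by name. For each gene, the peaks of the deposited lists that overlapped the stretch from 3 kb upstream of its start to its end were collected (the gene window, GRCh38). H3K4me3 and H3K27me3 had been mapped by chromatin immunoprecipitation sequencing in V16D, a castration-resistant prostate cancer line derived from LNCaP cells. The cells carried either a control lentivector (V16D/CTL) or a lentivector that overexpresses H19, a long noncoding transcript (V16D/H19), with biological triplicates of each, so that every mark had 3 V16D/CTL and 3 V16D/H19 libraries and each replicate had its own input. All cells come from 1 parental line and carry a lentivector, and the study's methods name a CMV promoter in the H19 vector, which also encodes GFP and puromycin resistance. The question asked of the HOX genes is how these marks are distributed over them when H19 is overexpressed.

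HOX genes encode homeodomain transcription factors that give cells their position along the head-to-tail axis of the embryo. Their order along each cluster follows their order of use, with low-numbered genes acting towards the head and high-numbered genes towards the tail, and the highest-numbered genes (HOXA13 and HOXD13) take part in forming the urogenital tract, the prostate included. H3K4me3 is placed at starts of active or poised genes by MLL-type methyltransferases, H3K27me3 is placed by PRC2, and HOX clusters are classic targets of both. A promoter that carries both marks is called bivalent.

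The lists held 20048 to 21934 H3K4me3 peaks and 55060 to 72289 H3K27me3 peaks, and the read depth behind them was not used here, so a gene without a listed peak may still carry the mark. Fold is the peak's enrichment over the input of the same replicate, a linear ratio. Of the luminal markers KLK2, KLK3, TMPRSS2, FKBP5, KRT8 and KRT18, 6 of 6 had an H3K4me3 peak within 1 kb of the start in all 6 lists and no H3K27me3 peak there, whereas 0 of 3 basal markers (KRT5, KRT14, TP63) had an H3K4me3 peak in all 6 lists, beside 2 of 5 neuroendocrine markers, 0 of 2 blood markers (PTPRC, CD3E) and 0 of 1 endothelial marker.

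The HOX promoters differ in their content of CpG dinucleotides, and CpG-rich promoters are known to draw both MLL and PRC2 complexes. The 250 bases upstream of the start are shown for 4 genes that differ in their marks: HOXA4 (H3K4me3 in all 6 lists, with an H3K27me3 peak in 1), HOXD8 (both marks in all 6), HOXD10 (H3K27me3 in all 6, no H3K4me3) and HOXA2 (neither). CpG dinucleotides are in capitals, and the sequences are those of RefSeq (GRCh38.p14), each read 5′ to 3′ on the strand of the gene.
HOXA4 (chr7:27130758-27131007, minus strand): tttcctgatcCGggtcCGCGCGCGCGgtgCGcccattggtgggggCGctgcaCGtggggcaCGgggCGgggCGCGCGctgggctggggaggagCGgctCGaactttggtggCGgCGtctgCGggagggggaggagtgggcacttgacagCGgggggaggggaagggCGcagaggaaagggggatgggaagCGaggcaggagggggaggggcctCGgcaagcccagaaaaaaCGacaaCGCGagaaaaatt
HOXD8 (chr2:176129455-176129704, plus strand): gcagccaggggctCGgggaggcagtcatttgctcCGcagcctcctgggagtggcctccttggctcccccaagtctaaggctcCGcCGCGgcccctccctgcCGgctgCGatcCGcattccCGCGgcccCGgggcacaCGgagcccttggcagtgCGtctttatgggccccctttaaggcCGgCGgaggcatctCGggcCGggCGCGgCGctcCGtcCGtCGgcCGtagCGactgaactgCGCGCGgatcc
HOXD10 (chr2:176116528-176116777, plus strand): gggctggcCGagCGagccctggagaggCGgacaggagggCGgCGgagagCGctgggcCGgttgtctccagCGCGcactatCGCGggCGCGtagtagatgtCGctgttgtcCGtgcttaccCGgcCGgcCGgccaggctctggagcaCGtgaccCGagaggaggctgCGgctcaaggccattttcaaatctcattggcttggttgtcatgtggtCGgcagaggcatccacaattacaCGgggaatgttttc
HOXA2 (chr7:27102684-27102933, minus strand): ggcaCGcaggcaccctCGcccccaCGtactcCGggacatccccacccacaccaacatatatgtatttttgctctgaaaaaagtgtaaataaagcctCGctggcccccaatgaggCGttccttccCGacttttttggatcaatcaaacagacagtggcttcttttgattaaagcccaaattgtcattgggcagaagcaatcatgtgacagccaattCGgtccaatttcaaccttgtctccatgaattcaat
They held 26, 28, 23 and 8 CpG dinucleotides respectively, counted by the letters CG, which read the same on both strands. Of all 35116 RefSeq promoters of this length, 19.6% held at least 26, 15.9% at least 28, 25.8% at least 23 and 56.3% at least 8. RefSeq promoters were matched for 20 of the 37 genes, with 27 starts among them. The median over the 27 starts was 19 CpG, beside 11 over all promoters. The 4 printed promoters do not show that CpG content follows the marks, as other HOX genes break their order. HOXA9, with neither mark, held 20 CpG, and HOXD12, with both marks in all 6 lists, held 16. HOXA11, with H3K4me3 alone, held 11, and HOXD4, with H3K27me3 alone, held 4.

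The clusters differed in the marks they carried. Of the 37 genes, 9 had peaks of both marks in all 6 lists of each mark, 7 had H3K4me3 in all 6 and H3K27me3 in none, 6 had H3K27me3 in all 6 and H3K4me3 in none, 5 had neither in any list, and 10 had a mark in some lists only. Over all 19671 protein-coding genes the shares in the same order were 8.21%, 51.7%, 3.78%, 18.4% and 17.9%. The 9 genes with both marks were HOXB3, HOXB6, HOXB7, HOXB9, HOXC4, HOXC8, HOXD8, HOXD12 and HOXD13. The 7 with H3K4me3 alone were HOXA6, HOXA10, HOXA11, HOXA13, HOXC5, HOXC6 and HOXC12, and the 6 with H3K27me3 alone were HOXB4, HOXD3, HOXD4, HOXD9, HOXD10 and HOXD11. HOXA2, HOXA5, HOXA9, HOXB1 and HOXC11 had no listed peak of either mark, and the 10 with a mark in some lists were HOXA3, HOXA4, HOXA7, HOXB2, HOXB5, HOXB8, HOXC9, HOXC10, HOXC13 and HOXD1. A window reaches over neighbouring genes where transcripts are long, as for HOXA3, HOXB3 and HOXC4, and HOXC4, HOXC5 and HOXC6 share a start in RefSeq, so members share peaks and are not independent of each other.

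**Figure D1:**
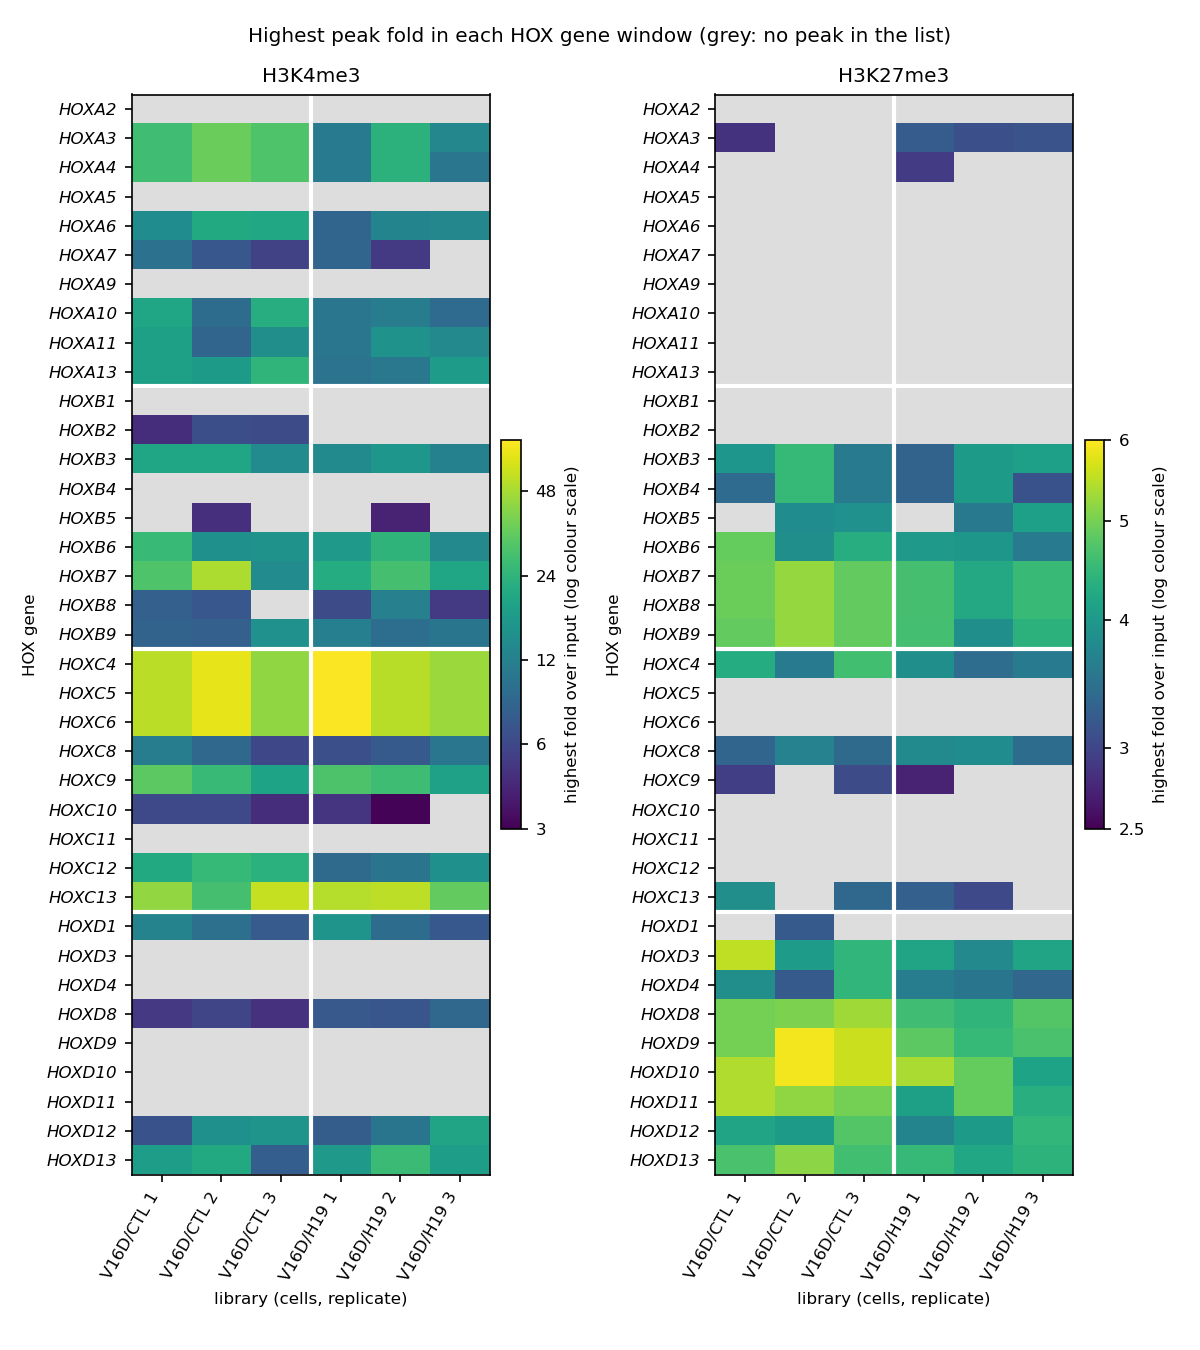
Highest fold over input of the peaks in each HOX gene window, by library (columns) and gene (rows), on a logarithmic colour scale that differs between the 2 marks, with grey where the list holds no peak. The right-hand panel is grey over nearly the whole HOXA cluster and filled from HOXD3 to HOXD13, while the left-hand panel is brightest at HOXC4, HOXC5 and HOXC6.

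HOXA carried almost no H3K27me3. Over the HOXA span (chr7:27100354-27203091, 102.738 kb) H3K27me3 peaks covered 0.395, 0 and 0 kb in V16D/CTL against 1.172, 0.516 and 0.637 kb in V16D/H19, and the peaks lay in the windows of HOXA3 and HOXA4. HOXA3, which patterns the pharyngeal arches, had an H3K27me3 peak in 1 of 3 V16D/CTL lists (fold 2.84) and 3 of 3 V16D/H19 lists (3.23, 3.09 and 3.13). These folds lie below the mean over all peaks of any H3K27me3 list (3.59 to 3.86, weighted by length), and the peaks of the V16D/H19 libraries did not all coincide. H3K4me3 stood at 6 regions of HOXA in all 6 lists, at HOXA4, upstream of HOXA6, between HOXA7 and HOXA9, within HOXA10, within HOXA11 and at HOXA13.

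HOXD showed the opposite layout. H3K27me3 ran over HOXD in long domains, of which the widest merged region, 17.358 kb over HOXD12, HOXD11 and HOXD10 (chr2:176101973-176119330), was present in all 6 lists. Over the HOXD span (chr2:176084487-176190907, 106.421 kb) H3K27me3 peaks covered 55.0, 62.2 and 55.8 kb in V16D/CTL. HOXD10, which helps to specify limb and lumbar motor neurons, had the highest mean H3K27me3 fold of the cluster and no H3K4me3 peak in any list. H3K4me3 was listed at 6 narrow regions of HOXD, each present in all 6 lists, at HOXD13, HOXD12, HOXD8 and HOXD1 and in the stretches between HOXD8 and HOXD4 and between HOXD3 and HOXD1.

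HOXB and HOXC lay between them. In HOXB (chr17:48528526-48629358, 100.833 kb) an 18.227 kb H3K27me3 region (chr17:48611685-48629911) was present in all 6 lists. It lies over HOXB8 and HOXB9 and reaches the window of HOXB7 only upstream of that gene's start. The head-ward genes HOXB1 and HOXB2 had no H3K27me3 peak. In HOXC (chr12:53935831-54056030, 120.2 kb) 3 H3K27me3 regions were present in all 6 lists, a pair upstream of HOXC8 and the other within HOXC4. The last lies far from the start that HOXC4 shares with HOXC5 and HOXC6. The authors' annotation, however, puts the deposited differential site over it at a promoter of HOXC4, within 1 kb of a start. The H3K4me3 region shared by HOXC4, HOXC5 and HOXC6 (chr12:54016193-54019035) was the widest of the 4 clusters at 2.843 kb. Its fold was 52.6, 65.0 and 42.9 in V16D/CTL against 72.1, 52.0 and 45.2 in V16D/H19. The groups overlapped there, and the mean is the highest H3K4me3 fold of the HOX genes.

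**Figure D2:**
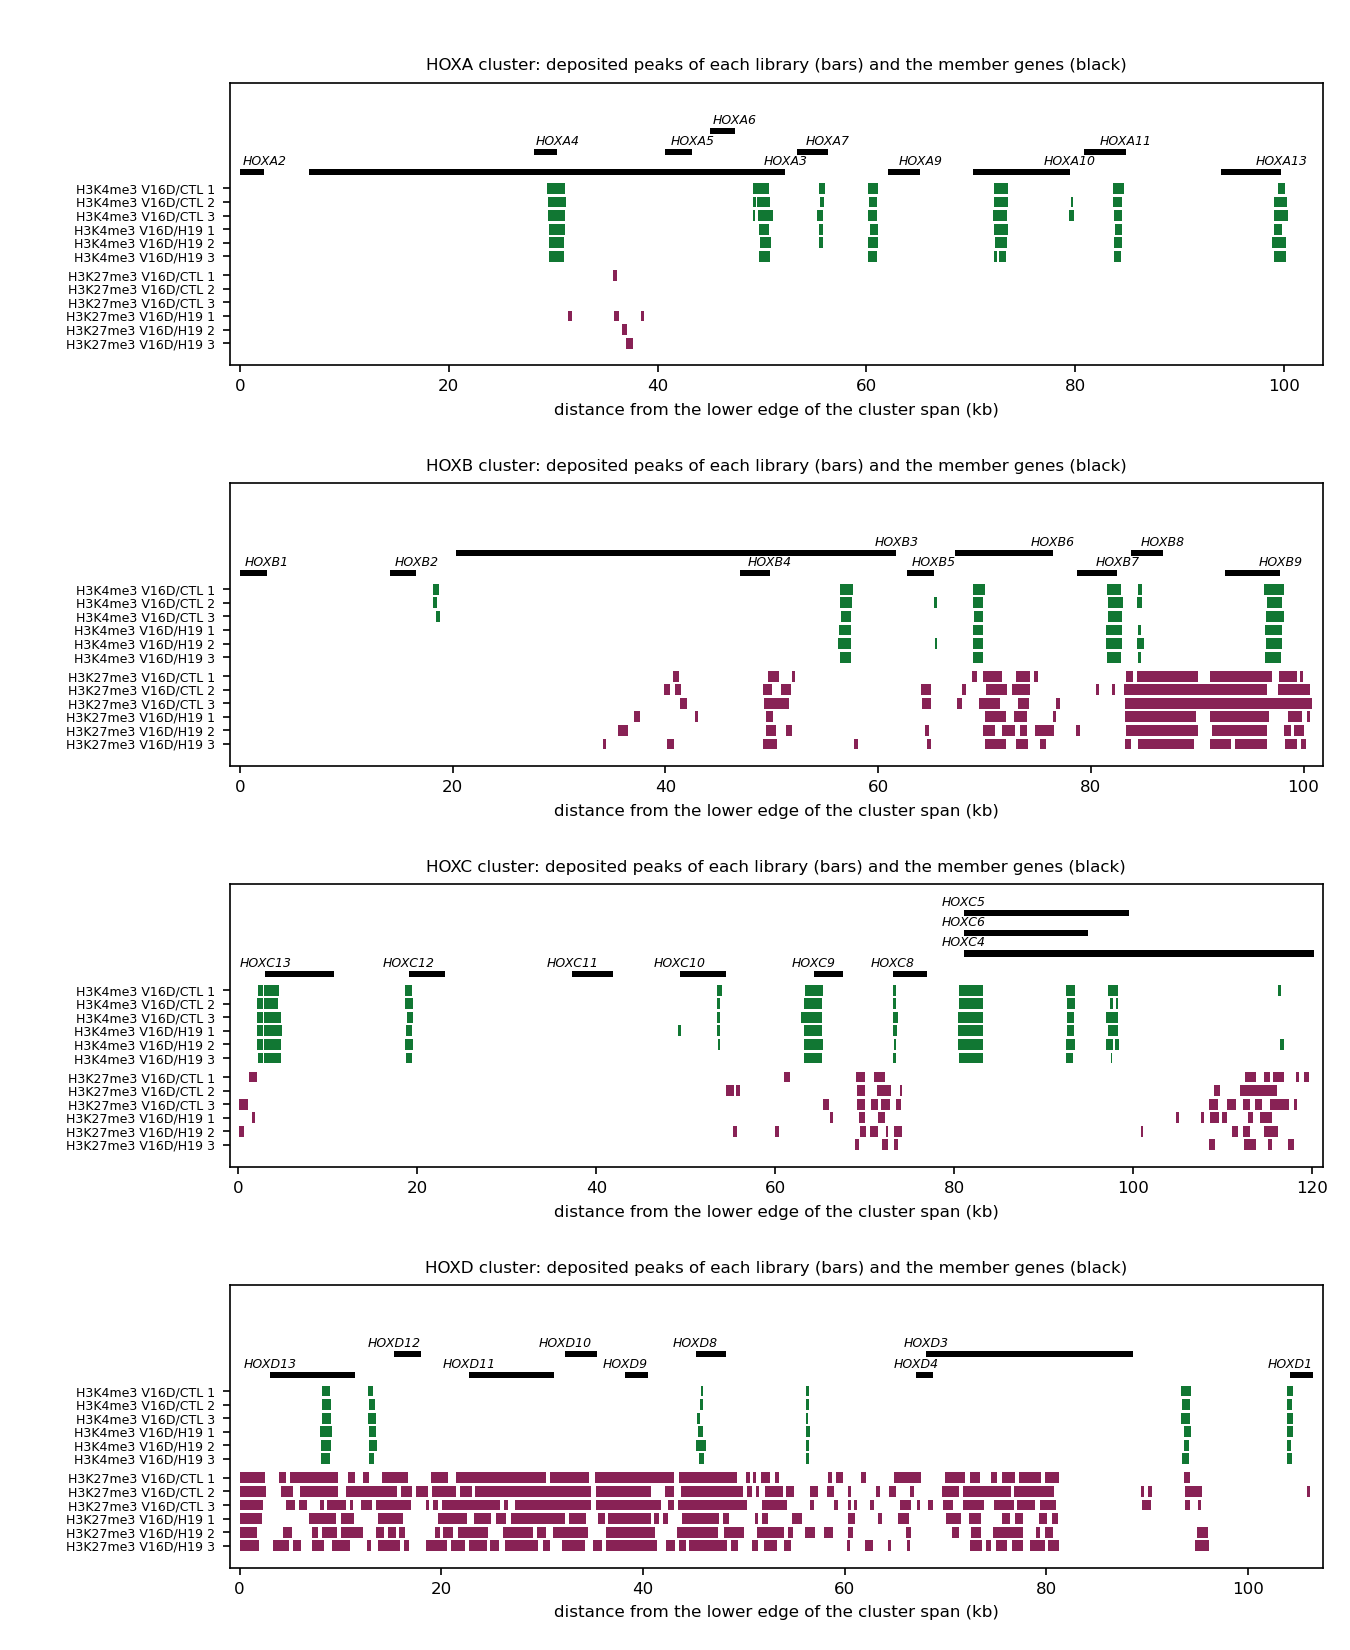
Deposited peaks of each library along the 4 HOX clusters (H3K4me3 green, H3K27me3 purple), with the genes in black and their names at their starts, against the distance in kb from the lower edge of the cluster span. The 12 rows of a cluster line up, so that HOXA is nearly empty of H3K27me3, HOXD is filled from HOXD13 to HOXD3, and the peaks of HOXB2 appear in the 3 V16D/CTL rows only.

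Overlap of the marks, an H3K4me3 peak sharing at least 1 base with an H3K27me3 peak of the same group and replicate, was found in the windows of 9 HOX genes in at least 1 replicate, beside 10.4% of all 19671 genes. The number per replicate was 8, 6 and 6 in V16D/CTL against 5, 8 and 7 in V16D/H19, which overlap (6.67 ± 1.15 and 6.67 ± 1.53, SD, n = 3, two-sided exact permutation test, p = 1). HOXB9, HOXD8 and HOXD13 had it in all 6 replicates (3.31% of all genes), HOXB7, HOXB8 and HOXD12 in 5, HOXB6 and HOXC8 in 3, and HOXC4 in 1. Of the 9, 4 lay in HOXB (HOXB6 to HOXB9), 3 in HOXD, 2 in HOXC and 0 in HOXA. The start was taken as the upstream edge of the whole RefSeq gene. Within 1 kb of it fewer genes were bivalent, at 2, 3 and 3 in V16D/CTL against 2, 3 and 3 in V16D/H19. HOXB9 and HOXD8 were bivalent there in all 6 replicates (2.44% of all genes), and HOXB7 and HOXC8 in some (at least 1 replicate, 4 HOX genes and 8.07% of all genes). HOXB6, HOXB8, HOXD12 and HOXD13 had no H3K4me3 peak within 1 kb of this start in any list. Their overlaps therefore lie elsewhere in the window, and other starts of a gene were not counted. HOXD13 has a further RefSeq start, whose promoter (chr2:176092471-176092720) meets its H3K4me3 region (chr2:176092480-176093619). That region was in all 6 lists and is the only H3K4me3 region in the HOXD13 window, so the HOXD13 overlaps lie there. The number of HOX genes with an H3K4me3 peak was 25, 26 and 24 in V16D/CTL against 24, 25 and 22 in V16D/H19 (exact permutation test, p = 0.5), and with an H3K27me3 peak 19, 18 and 19 against 20, 19 and 18 (exact permutation test, p = 1). With 3 libraries against 3, the exact permutation test cannot go below p = 0.1.

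H3K27me3 peaks covered a shorter stretch of the HOX clusters in every V16D/H19 library than in any V16D/CTL library. Summed over the 4 clusters it covered 83.1, 96.0 and 92.1 kb in V16D/CTL against 68.0, 74.1 and 71.3 kb in V16D/H19. The groups did not overlap, and the means were 90.4 ± 6.58 and 71.1 ± 3.04 kb (SD, n = 3), a ratio of 0.787 (exact permutation test, p = 0.1, the smallest it can give). Over the whole lists, H3K27me3 peaks covered 45.1, 58.8 and 62.2 Mb in V16D/CTL against 42.3, 47.5 and 48.4 Mb in V16D/H19, a ratio of 0.832 with overlapping groups (exact permutation test, p = 0.3). As a share of the length covered by each list, the 4 clusters held 0.1474% to 0.1845%. In that share the groups overlapped, so the separation in kb is not particular to the HOX clusters. In bulk cells a lower value from fewer cells with the mark and one from less mark per cell cannot be told apart.

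By cluster, the H3K27me3 length in HOXD was 55.0, 62.2 and 55.8 kb in V16D/CTL against 41.3, 44.5 and 47.1 kb in V16D/H19, a ratio of 0.768. HOXC had 7.72, 8.68 and 10.9 kb against 6.36, 7.51 and 4.65 kb, a ratio of 0.677. Both clusters had groups that did not overlap (exact permutation test, p = 0.1, 0.2 after adjustment over the 8 cluster and mark comparisons). HOXB had 20.0, 25.1 and 25.3 kb against 19.2, 21.5 and 18.965 kb, which overlap (exact permutation test, p = 0.2, adjusted 0.32). HOXA went the other way on its few peaks, at 0.395, 0 and 0 kb against 1.172, 0.516 and 0.637 kb, without overlap (exact permutation test, p = 0.1, adjusted 0.2). The mean fold over the covered bases was also lower in V16D/H19 in HOXD, at 4.49, 4.50 and 4.49 against 4.09, 3.99 and 4.04, and in HOXB, at 4.56, 4.70 and 4.48 against 4.13, 3.82 and 3.86 (exact permutation test for each, p = 0.1, adjusted 0.233 over 7 comparisons). In HOXC it was 3.52, 3.48 and 3.45 against 3.50, 3.28 and 3.21, which overlap (exact permutation test, p = 0.3, adjusted 0.525). The same mean over whole lists was 3.86, 3.72 and 3.71 against 3.65, 3.59 and 3.63, also without overlap (exact permutation test, p = 0.1). V16D/H19 thus lay at 0.9 times V16D/CTL in HOXD, 0.859 times in HOXB, 0.955 times in HOXC and 0.963 times over all peaks.

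For H3K4me3 it was HOXA whose groups stood apart. HOXA had 7.78, 8.07 and 8.65 kb in V16D/CTL against 6.54, 7.06 and 6.18 kb in V16D/H19, a ratio of 0.807, and its mean fold was 19.8, 18.2 and 19.3 against 11.6, 15.2 and 12.4. Neither measure overlapped between the groups in HOXA (exact permutation test, p = 0.1 for each, adjusted 0.2 for length and 0.233 for fold). HOXB (ratio 0.936), HOXC (0.995) and HOXD (1.13) had overlapping groups in length, with exact permutation p of 0.4, 1 and 0.3. Over the whole lists H3K4me3 length had a ratio of 1.01 (exact permutation test, p = 0.8) and mean fold a ratio of 1.02 (p = 0.6 by the same permutation test).

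**Figure D3:**
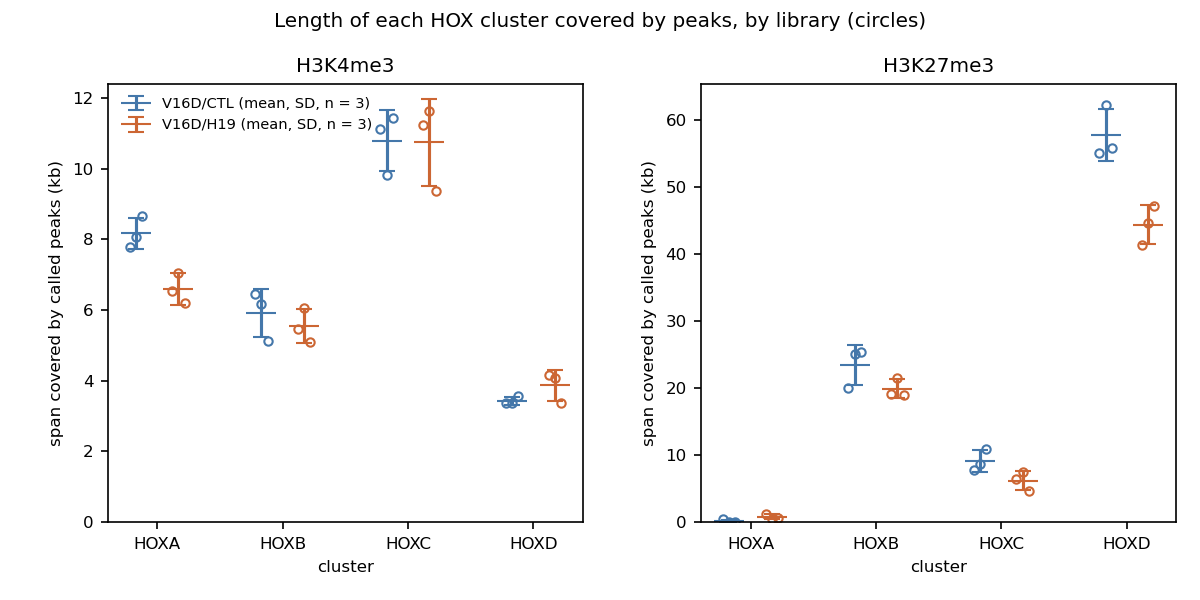
Length of each HOX cluster span covered by called peaks, in kb, with circles for single libraries and bars for mean and SD of 3. The V16D/H19 libraries lie below all V16D/CTL libraries for H3K4me3 in HOXA and for H3K27me3 in HOXC and HOXD, and above them for the small H3K27me3 length in HOXA.

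Single genes were tested with limma over all genes with a peak of the mark in all 6 lists, on log2 of the highest fold and, as a measure added after the data had been seen, on log2 of the covered length. For H3K4me3 fold, 21 HOX genes were among the 13355 genes tested and 0 passed an adjusted p of 0.05 (over all genes 0% passed higher and 0.015% lower in V16D/H19), while 5 had an unadjusted p under 0.05, beside 6.36% of all genes. For H3K27me3 fold, 16 HOX genes were among 2725 tested and 0 passed (0% of all genes higher and 0% lower), while 4 had an unadjusted p under 0.05, beside 14.2%. For covered length 0 HOX genes passed in either mark. All genes passed at 0.105% higher and 0.0449% lower for H3K4me3 and at 0% and 0% for H3K27me3, and unadjusted p under 0.05 was reached by 6 of 21 HOX genes for H3K4me3 (9% of all genes) and 3 of 16 for H3K27me3 (20.5%). The standard errors of H3K4me3 fold at the HOX genes ran from 0.28 (HOXD8) to 0.36 (HOXD12) on the log2 scale, and differences beyond 1 did not pass, so the lack of calls does not show that the marks did not differ. The values below are descriptions of the libraries.

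H3K4me3 at the start of HOXA4, a gene of the head-ward part of the cluster, had a fold of 27.5, 35.0 and 30.5 in V16D/CTL against 11.0, 23.4 and 10.5 in V16D/H19. All V16D/H19 values lay below all V16D/CTL values (log2 difference -1.15 ± 0.32 SE, limma adjusted p = 0.521). The window of HOXA3 holds this peak and the one upstream of HOXA6, so its difference of -1.04 is not a separate result. The promoter of HOXA4 printed above lies within the merged region of this peak (chr7:27129758-27131567). Upstream of HOXA6, a gene of the middle of the cluster, fold was 14.1, 20.8 and 20.0 against 8.52, 12.7 and 13.1, again with no overlap (limma log2 difference -0.68 ± 0.30 SE, adjusted p = 0.74). This region (chr7:27149489-27151399) also holds a RefSeq promoter of HOXA3 (chr7:27150951-27151200). HOXA6 had no H3K4me3 peak within 1 kb of its own start in any list, so the peak is not particular to HOXA6.

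The covered length was also lower in V16D/H19 at these places. In the HOXA6 window H3K4me3 covered 1282, 1198 and 1060 bases in V16D/CTL against 740, 594 and 724 bases in V16D/H19 (log2 difference -0.78 ± 0.11 SE, limma adjusted p = 0.0801). In the window of HOXA3, which holds the peaks of both HOXA4 and HOXA6, it covered 3344, 3259 and 3343 bases against 2518, 2577 and 2517 bases (-0.39 ± 0.05 SE, limma adjusted p = 0.0636, and 0.0472 when each library was centred on its median). HOXA3 is the 1 HOX gene that passed in any of the limma fits run, and its call rests on that centring. With 1 library left out its adjusted p lay between 0.103 and 0.22. HOXA10, which acts in the reproductive tract, had an H3K4me3 fold of 19.6, 9.28 and 22.0 against 10.5, 11.5 and 9.17, with overlap, and HOXA13 had 18.4, 17.1 and 24.2 against 10.1, 10.8 and 17.2, also with overlap at the margin. HOXA11, which acts in the limb and uterus, had 18.5, 8.54 and 14.5 against 10.5, 15.2 and 13.5, with overlap (limma adjusted p = 0.992).

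Outside HOXA, HOXC12, a tail-ward gene with H3K4me3 alone, had a fold of 20.8, 25.4 and 22.9 in V16D/CTL against 9.07, 10.3 and 14.9 in V16D/H19. The groups did not overlap (log2 difference -1.04 ± 0.29 SE, limma adjusted p = 0.521), while its covered length of 756 to 834 bases and 713 to 824 bases did. Its neighbour HOXC13, a gene of hair and nail formation, had 43.3, 28.4 and 55.1 against 50.9, 53.2 and 34.0, which overlap. Across the tested HOX genes, highest fold was lower without overlap at 4 of 21 (HOXA3, HOXA4, HOXA6 and HOXC12; 3.87% of all genes) and higher at 1 (HOXD8; 7.29%). Covered length was lower without overlap at 4 (HOXA3, HOXA4, HOXA6 and HOXA10; 6% of all genes) and higher at 2 (HOXD8 and HOXC13; 8.13%). HOXA3 shares its peaks with HOXA4 and HOXA6, so these counts hold fewer separate places than genes. HOXA10 stood apart in length only at the margin, with 1379, 1548 and 1848 bases in V16D/CTL against 1374, 1137 and 995 in V16D/H19. A further peak at its start in 2 V16D/CTL lists enters these lengths, and its main region overlapped between the groups. HOXA4, HOXA6, HOXA10, HOXA11, HOXA13, HOXC8, HOXC10, HOXC12, HOXC13, HOXD3, HOXD4, HOXD9 and HOXD11 were picked for single values here after those values had been seen.

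HOXD8 had the opposite order of groups in H3K4me3. It sits inside the H3K27me3 domain of HOXD, where its printed promoter lies in an H3K27me3 region present in all 6 lists (chr2:176127835-176140256), and its H3K4me3 region (chr2:176129693-176130770) begins in the last bases of that promoter. Its H3K4me3 fold was 5.11, 5.86 and 4.74 in V16D/CTL against 7.34, 7.07 and 8.73 in V16D/H19, and its peak covered 230, 300 and 255 bases against 565, 1078 and 552 bases. Neither measure overlapped between the groups (log2 difference of fold 0.56 ± 0.28 SE, limma adjusted p = 0.8; of length 1.42 ± 0.26 SE, limma adjusted p = 0.169). Its H3K27me3 fold was 5.00, 5.05 and 5.29 against 4.58, 4.43 and 4.74, also without overlap (limma log2 difference -0.16 ± 0.10 SE, adjusted p = 0.451). HOXD13 had the highest mean H3K4me3 fold of the cluster, at 17.7, 20.9 and 7.75 against 16.7, 26.4 and 17.8, with overlap.

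HOXB2, a hindbrain patterning gene, was the only HOX gene with a mark in all lists of a group and in none of the other. Its H3K4me3 peak had a fold of 4.57, 6.46 and 6.31 in V16D/CTL, covered 507, 413 and 398 bases, and was found in none of the 3 V16D/H19 lists. The merged region (chr17:48546630-48547353) lies upstream of HOXB2 and at HOXB-AS1, an antisense transcript. Of the 14250 genes with an H3K4me3 peak in any list, 0.0702% had this pattern and 0.288% the reverse, and 1 and 0 of the 26 HOX genes did. For H3K27me3 the shares were 1.07% and 0.362% of 5520 genes, with 0 of 22 HOX genes in each. Its folds lie below the mean H3K4me3 fold over all HOXB peaks (17.4 in V16D/CTL), and whether a weaker signal remained in V16D/H19 cannot be read from the lists.

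**Figure D4:**
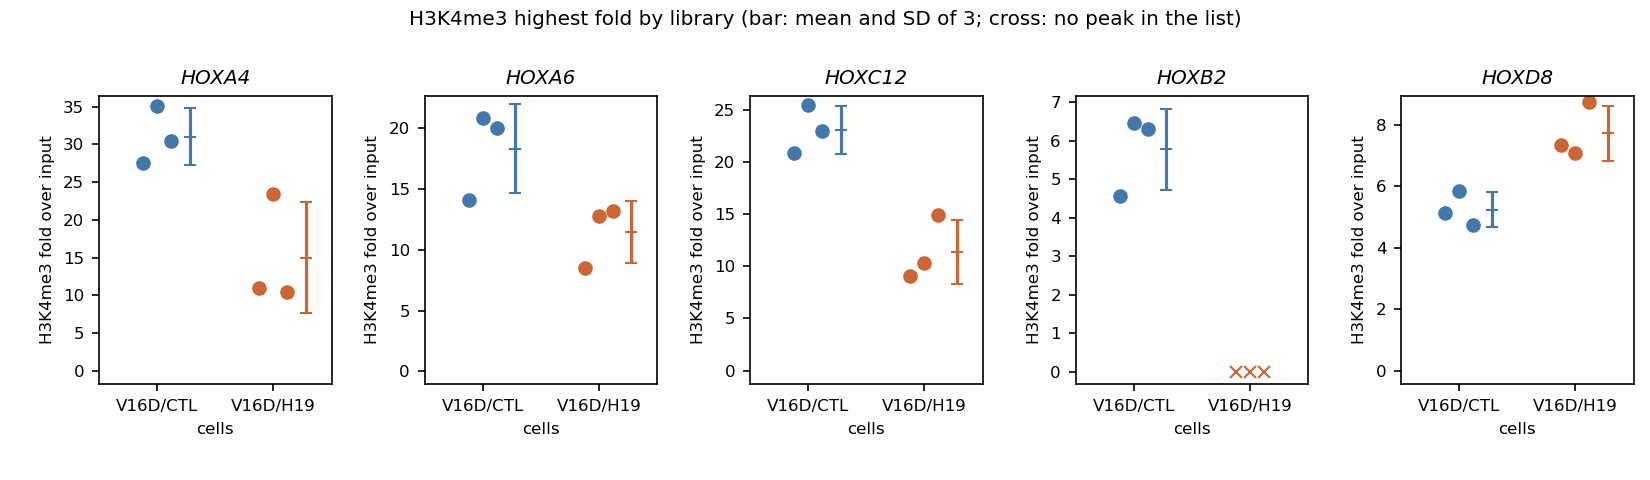
Highest H3K4me3 fold over input in the windows of HOXA4, HOXA6, HOXC12, HOXB2 and HOXD8, by group, with points for libraries, bars for mean and SD of 3 and crosses for lists without a peak. V16D/H19 points lie below all V16D/CTL points at HOXA4, HOXA6 and HOXC12 and above them at HOXD8, and HOXB2 has crosses in V16D/H19.

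For H3K27me3, 15 of the 16 tested HOX genes had a lower fold in V16D/H19, beside 74.2% of all 2725 genes, and the median log2 difference was -0.16 beside -0.08 over all genes. HOXC8 was the exception, at 3.32, 3.69 and 3.39 against 3.80, 3.83 and 3.41 (log2 difference 0.09 ± 0.10 SE, limma adjusted p = 0.705). Fold was lower without overlap at 8 of the 16 (HOXB7, HOXB8, HOXB9, HOXD8, HOXD9, HOXD10, HOXD11 and HOXD13; 17.9% of all genes) and higher at 0 (2.35%). The windows of these 8 genes reach into the 18.227 kb region of HOXB or adjoining regions of HOXD, and several share a peak. For covered length the figures were 8 of 16 lower (HOXB9, HOXD3, HOXD4, HOXD8, HOXD9, HOXD10, HOXD11 and HOXD12; 26.1%) and 0 higher (2.5%). The median log2 difference of covered length over all genes was -0.32, beside -0.38 at the HOX genes. With each library centred on its median these medians were 0.02 and -0.03. In the centred limma fits 0 of the 16 HOX genes had an unadjusted p under 0.05 for fold (9.21% of all genes) and 0 for covered length (17.6%).

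The HOXD domain held the highest mean H3K27me3 folds of the HOX genes, at HOXD10 and HOXD9. HOXD10 had an H3K27me3 fold of 5.40, 5.91 and 5.59 in V16D/CTL against 5.38, 4.89 and 4.15 in V16D/H19, without overlap (log2 difference -0.24 ± 0.11 SE, limma adjusted p = 0.344). HOXD9 had 5.00, 5.91 and 5.59 against 4.82, 4.50 and 4.67, and again the groups stood apart. HOXD11, a limb patterning gene, had 5.40, 5.18 and 5.00 against 4.12, 4.89 and 4.33. HOXD12 had 4.16, 4.03 and 4.75 against 3.71, 4.03 and 4.47, with overlap. The mean of each of these 4 genes was lower in V16D/H19, by less than 1 unit of fold.

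Within HOXD, the covered length differed most at HOXD4, HOXD3 and HOXD12. HOXD3, which shapes the cervical vertebrae, had 11066, 10829 and 10284 bases of its window covered by H3K27me3 in V16D/CTL against 6728, 6231 and 6791 bases in V16D/H19 (log2 difference -0.70 ± 0.18 SE, limma adjusted p = 0.14). HOXD4 had 2640, 1144 and 1891 bases against 1072, 554 and 590 (-1.34 ± 0.40 SE, limma adjusted p = 0.16). The windows of HOXD3 and HOXD4 share part of this stretch, and V16D/H19 lay below V16D/CTL in both. HOXD12, towards the other end, had 3134, 4946 and 4372 bases against 2571, 2143 and 3076 bases, also without overlap (-0.67 ± 0.26 SE, limma adjusted p = 0.22). In HOXB, the windows of HOXB7 and HOXB8 share a region that lies upstream of HOXB7 and over HOXB8. Both had an H3K27me3 fold of 4.92, 5.23 and 4.86 against 4.63, 4.24 and 4.53, the highest mean fold in HOXB (limma log2 difference -0.16 ± 0.10 SE, adjusted p = 0.439). HOXB9 had 4.86, 5.23 and 4.86 against 4.61, 3.87 and 4.39. HOXC4, the highest of HOXC over all 6 libraries but not over the 3 of V16D/H19, where HOXC8 was higher, had 4.30, 3.58 and 4.61 against 3.87, 3.42 and 3.58, with overlap.

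**Figure D5:**
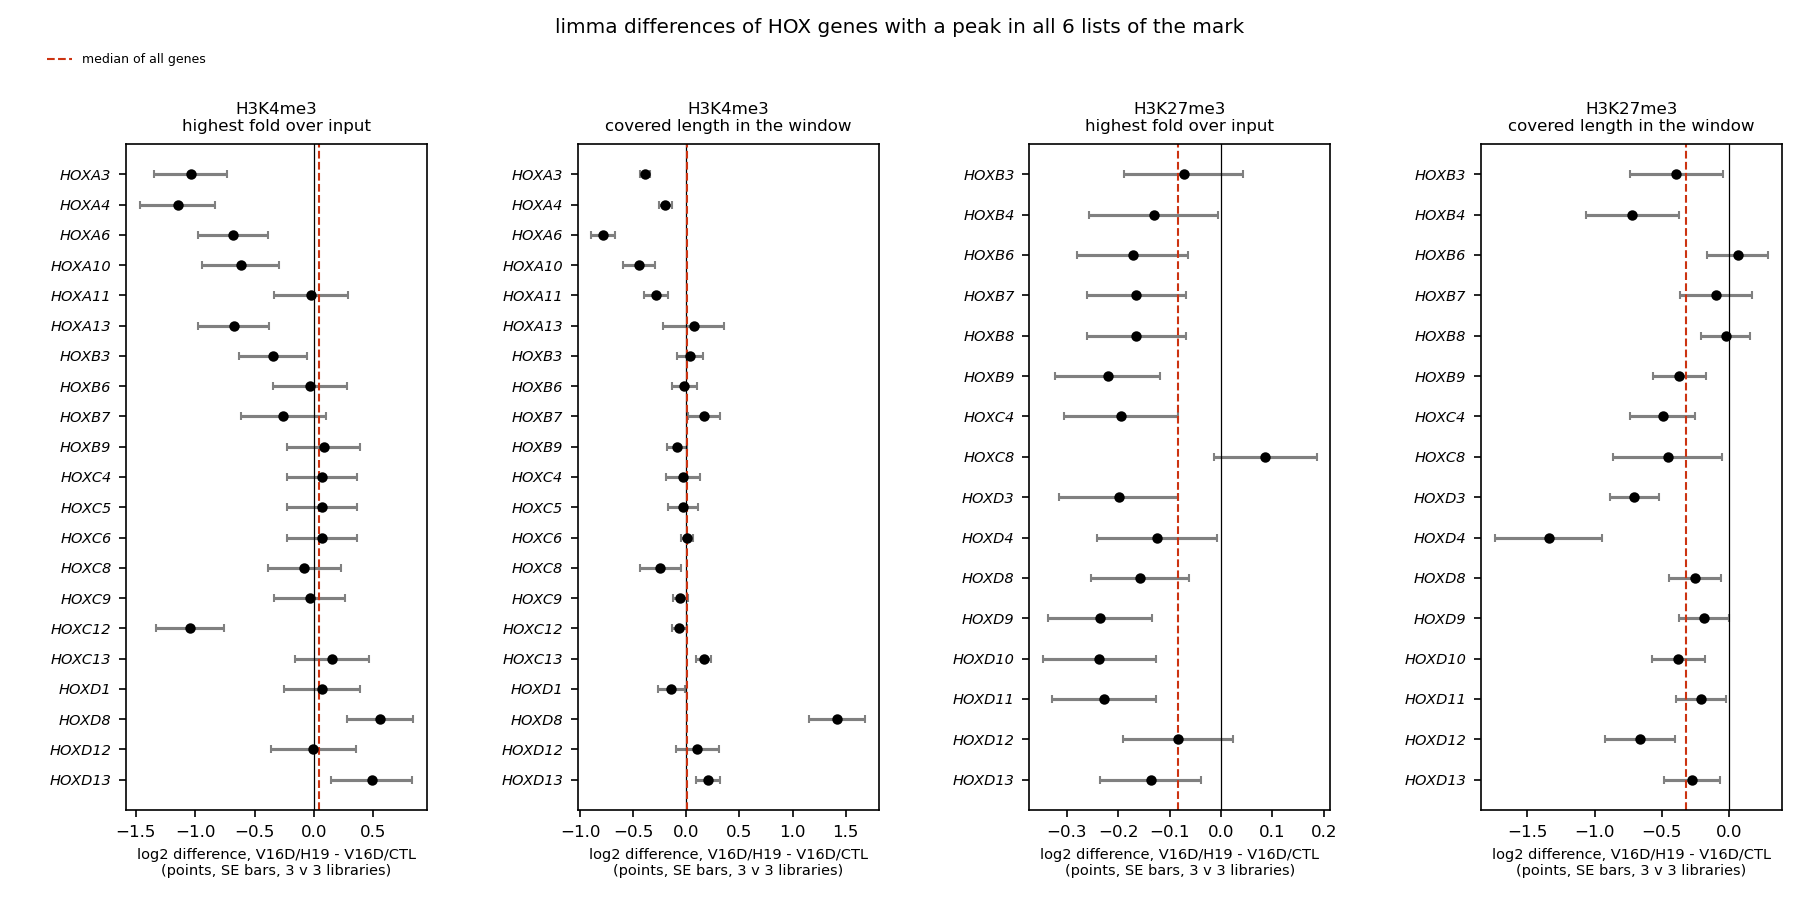
limma log2 differences (V16D/H19 minus V16D/CTL) of the HOX genes with a peak in all 6 lists, for highest fold and covered length of each mark, with SE bars and a dashed line at the median of all genes tested. HOXA3, HOXA4, HOXA6 and HOXC12 stand lowest in H3K4me3 fold, HOXD8 stands highest in H3K4me3 covered length, and most H3K27me3 points lie near the dashed line.

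With only the strongest H3K27me3 peaks (-log10 q of at least 5), 5, 5 and 6 HOX genes had a peak in V16D/CTL against 0, 0 and 0 in V16D/H19 (exact permutation test, p = 0.1, the smallest possible). Such peaks were found at HOXB7, HOXB8 and HOXD10 in 3 of 3 V16D/CTL lists, at HOXB9 and HOXD9 in 2, and at HOXD3, HOXD8 and HOXD11 in 1. This threshold leaves few peaks anywhere in V16D/H19: 384, 474 and 498 genes had one in V16D/CTL against 96, 119 and 145 in V16D/H19. Of the 823 genes with such a peak in any list, 9.6% had it in 3 of 3 V16D/CTL and 0 of 3 V16D/H19 lists, and 0% the reverse. Of the 8 HOX genes, 3 had the first pattern. All 8 were in this set through V16D/CTL lists only, so the reverse could not occur among them. HOXB7 and HOXB8 share an H3K27me3 region, so the 3 genes are not separate places. For H3K4me3 at the same threshold the shares were 0.107% and 0.32% of 14061 genes. HOXC10, a limb and motor neuron gene, was the 1 HOX gene of 25 with the first pattern, and in the full lists the highest H3K4me3 fold in its window was 6.04, 6.04 and 4.56 in V16D/CTL, 4.90 and 3.11 in 2 V16D/H19 lists and unlisted in the third.

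The deposited tables of differential sites named HOX genes at 8 sites, 4 per mark, among 1857 H3K4me3 and 1140 H3K27me3 sites. Concentrations are the authors' group means of log2 normalized reads, given without spread and not tested here, and site positions are printed as deposited. For H3K27me3 all 4 were lower in V16D/H19, as were 91.5% of all listed sites: the site named for HOXB8 (chr17:48611511-48631393) had 9.24 in V16D/CTL against 8.7 in V16D/H19, that for HOXD12 (chr2:176071008-176101577) 9.31 and 8.95, that for HOXD10 (chr2:176101733-176119386) 8.73 and 8.32, and that for HOXC4 (chr12:54046347-54054456) 6.98 and 6.19. These sites span whole stretches of the HOXB and HOXD domains, so the gene named is only one of those beneath each.

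For H3K4me3, 3 of the 4 were lower in V16D/H19, beside 76% of all listed sites. HOXB7 (chr17:48609472-48615332) had 8.34 in V16D/CTL against 7.72 in V16D/H19, HOXB9 (chr17:48623988-48627299) 7.35 and 6.76, and HOXC6 (chr12:54028144-54029411) 6.76 and 5.88. HOXD8 (chr2:176128916-176131136) was the site higher in V16D/H19, at 3.87 and 5.03, a difference of 1.16 on the log2 scale. The edges of the sites in the tables match those of the listed peaks only in part, so the sites may rest on other peak calls than the lists, and folds and concentrations are set side by side with that limit. In the peak lists, the folds under these sites overlapped between the groups for HOXB7 (30.3, 49.1 and 14.004 against 21.6, 28.5 and 19.8), HOXB9 (8.31, 7.98 and 15.1 against 11.96, 9.45 and 10.4) and HOXC6 (12.4, 11.4 and 17.0 against 5.98, 12.7 and 8.12), and did not for HOXD8.

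By position, 12 sites overlapped a HOX gene window. The 4 further sites were named for HOXA-AS3 (7.59 and 6.62, over HOXA3 and HOXA6), HOXB-AS1 (4.45 and 3.03, over HOXB2) and HOXA10-AS (7.8 and 7.39, over HOXA9 and HOXA10) in H3K4me3, and for no gene in an H3K27me3 site over HOXD8, HOXD9 and HOXD10 (9.05 and 8.67). All 4 were lower in V16D/H19. The first 2 are the places at HOXA6 and HOXB2 described above. The HOXA10-AS site, 14.272 kb wide, was covered by listed peaks over 13.1% to 16.04% of its length, so its mean concentration takes in much sequence without a called peak.

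Genes that work with or beside the HOX genes were counted in the same way. Of 9 TALE homeodomain cofactors, which bind DNA together with HOX proteins, 9 had H3K4me3 in all 6 lists and 3 also H3K27me3 in all 6. Of 9 upstream regulators (CDX and retinoic acid genes), 5 had H3K4me3 and 4 H3K27me3 in all 6. Of 11 genes bordering the clusters, 8 had H3K4me3 and 2 H3K27me3 in all 6, and of 20 noncoding RNA genes within the clusters 10 and 1 did. Of 30 other developmental homeobox genes, 21 had H3K4me3 and 13 had H3K27me3 in all 6 lists and 0 had neither, beside 21, 16 and 5 of the 37 HOX genes. In the limma fits of fold none of these lists held a gene past an adjusted p of 0.05. The numbers with an unadjusted p under 0.05 were, for H3K4me3, 1 of 21 other homeobox genes, 0 of 9 cofactors, 0 of 5 regulators and 1 of 8 bordering genes, and for H3K27me3, 4 of 13 other homeobox genes and 0 of 9 in the other lists together, while the noncoding RNA genes were outside these fits. The median log2 difference of H3K27me3 fold was -0.18 in the other homeobox genes, beside -0.16 in the HOX genes, and of H3K4me3 fold -0.11, beside -0.03, with 0.05 over all genes.

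MicroRNA genes of the clusters are known to target HOX transcripts. The mature forms are shown (RefSeq, GRCh38.p14) because miR-196a is encoded in HOXB and HOXC and miR-196b in HOXA, with 1 shared seed (bases 2 to 8, in capitals), while miR-10a of HOXB has another.
miR-196a-5p: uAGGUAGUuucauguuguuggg
miR-196b-5p: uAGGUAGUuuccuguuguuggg
miR-10a-5p: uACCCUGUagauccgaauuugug
Counted from the 5′ end, miR-196a-5p and miR-196b-5p differ at 1 base (A12C, from miR-196a to miR-196b). MIR196B (chr7:27169480-27169563) had an H3K4me3 peak in its window in 2 of 3 V16D/CTL lists (fold 9.28 and 22.0) and 0 of 3 V16D/H19 lists, but its window only clips the edge of the HOXA10 peak, whose region is in all 6 lists, so the count reflects where that edge was called. MIR196A2 in HOXC, with the peak of HOXC10, had H3K4me3 in 3 of 3 and 2 of 3 lists, and MIR196A1, beyond HOXB9, had no peak of either mark. MIR10A, next to HOXB4, had no H3K4me3 peak and an H3K27me3 peak in 3 of 3 V16D/CTL lists (fold 3.40, 3.78 and 3.57) and 1 of 3 V16D/H19 lists (3.17), at or beside the edge of an H3K27me3 region at HOXB4 that is itself in all 6 lists. MIR10B, next to HOXD4, had H3K27me3 in 3 of 3 and 2 of 3 lists and no H3K4me3. No test was made of these microRNA windows.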

How the data were processed

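Peak lists and tables of differential sites were taken as deposited. Per the labels, V16D cells were transduced with a control or an H19 lentivector in biological triplicates, and the submitters' processing notes name hg38, MACS2, DiffBind and ChIPseeker, without versions. The authors called narrow (H3K4me3) or broad (H3K27me3) peaks in each library with MACS2 against its input. The deposited lists give, per peak, a fold over input (a linear ratio), with p and q written as −log10 values. The deposited tables give log2 concentrations, group means without replicate values, and the authors' own folds, p-values and FDR, which were not used.

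Genes were RefSeq genes of GRCh38.p14, with strand from RefSeq promoters or GENCODE by symbol. Each gene window ran from 3 kb upstream of the start to the gene end, and a peak counted at 1 shared base. Highest fold and covered length per window were fitted with limma 3.58.1 (R 4.3.3) on log2, without a pseudocount, over protein-coding genes with a peak in all 6 lists of a mark, with Benjamini-Hochberg adjustment and a threshold of 0.05. Windows without a peak in some list were therefore left out of these fits, 16 HOX genes for H3K4me3 and 21 for H3K27me3. Values per library were compared by two-sided exact permutation tests over 20 assignments (scipy 1.17.1), which cannot give a p below 0.1. The scripts were tested on simulated data. Fold and length are those of called peaks and depend on depth; read totals were not used, and no counting intervals are given. The covered-length fits were added after the data had been seen.

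The HOX genes and the other gene lists were chosen with earlier results of these data known. Genes were given in full where they passed the limma test, where the number of lists with a peak differed by at least 2 between groups, where a deposited table named them, or where they had the highest mean fold of their cluster. Alternatives were a −log10 q of at least 5, lists of equal length, an overlap of at least 200 bases, windows within 1 kb of the start, centred libraries, a length-weighted mean fold, a peak in at least 5 lists, left-out libraries and a replicate block. The 6 input libraries entered through peak calling only.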

Additional observations from a re-analysis of the deposited data

How the results depend on the processing

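Of 105 alternative values, 1 crossed the threshold and 3 reversed. The number of HOX genes with an H3K27me3 peak, 0.333 higher in V16D/H19 on average, reversed to -5.33 at a -log10 q of at least 5 and to -1 within 1 kb of the start, and ranged from -0.167 to 0.833 with 1 library left out (-0.167 without V16D/H19 replicate 1); it was 0 with lists of equal length and without V16D/CTL replicate 2. For the H3K4me3 covered length 1 HOX gene, HOXA3, passed with centred libraries and 0 otherwise. The H3K27me3 length in the 4 clusters stayed lower in V16D/H19 in every alternative run, at -22.9 to -16.5 kb with 1 library left out. The H3K4me3 length differed by -0.191 kb without V16D/H19 replicate 3 and by -1.56 kb with all libraries. The mean number of HOX genes with overlapping marks differed by 0 in the full lists, so it had no direction to keep, by -2 at a -log10 q of at least 5, by -0.667 at an overlap of 200 bases, by 0.333 with lists of equal length and by -0.667 to 0.833 with 1 library left out. At that threshold no HOX gene had H3K27me3 in all 6 lists, so the limma fits gave no value there. Of all genes, the count called for H3K4me3 covered length was 20, and 1 to 19 with 1 library left out, 31 with centred libraries, 6 at a -log10 q of at least 5 and 4 within 1 kb of the start. For fold the count was 2 in H3K4me3, with 0 to 2 over the alternatives, and 0 in H3K27me3, with 0 to 3, and for H3K27me3 covered length it was 0, with 0 to 5. The cause of these differences was not tested. To see whether replicate numbers pair the libraries, each gene's deviations in log2 highest fold from its group mean were correlated between same-numbered libraries. These correlations of deviations were 0.0194, 0.0374 and 0.0289 for H3K4me3 and -0.00824, 0.0108 and -0.0197 for H3K27me3. Between libraries of different number they ran from -0.0313 to 0.00184 for H3K4me3, below every same-numbered value, and from -0.0264 to 0.0343 for H3K27me3, around the same-numbered values. As all of them were small, the numbers were not taken to pair the libraries in the main fits, though a weak pairing in H3K4me3 is not excluded. With a replicate block, 0 HOX genes passed in any limma fit, the count over all genes for H3K4me3 covered length was 1, and the differences per library kept their values, -19.2 kb for H3K27me3 length (exact sign-flip test, p = 0.25, the smallest possible), -1.56 kb for H3K4me3 length (exact p = 0.75), -1.33 and 0.333 for genes with a peak (exact p = 0.25 and 1) and 0 for genes with overlapping marks.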
